A study of Mus musculus with 6 samples.

Results

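The Adamts, Mmp and Timp genes encode the secreted and membrane-bound metalloproteases that cut extracellular matrix, together with their inhibitors. They were taken here by name, as every non-control probe whose gene name in the array files is Adamts, Adamtsl, Mmp or Timp followed by its number. This gave 51 genes on 70 probes, out of 55681 non-control probes on the array. Of the 51 genes, 25 passed a filter on low levels and were tested, among 13197 genes tested in all. The cells were mesenchyme of forelimb autopods, the hand plates, of C57BL/6 mouse embryos at stage E11.5, in which digit primordia are being laid down. All embryos carried a Sox9-EGFP knock-in, which places a green fluorescent reporter under the control of the Sox9 locus, so no embryo without the knock-in is among the groups. Cells were sorted by fluorescence into Sox9-EGFP positive cells (3 samples) and Sox9-EGFP negative cells (3 samples), each sample pooled from about 10 autopods. Total RNA was hybridised to Agilent 1-colour arrays, and the study asked which genes differ between the sorted populations in a network of Bmp, Sox9 and Wnt that patterns digits.

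ADAMTS proteases are secreted enzymes with thrombospondin motifs. A branch of the family cleaves the large proteoglycans versican and aggrecan, another removes the amino-terminal propeptide of fibrillar procollagens, and the ADAMTS-like proteins have the same ancillary domains without the protease and bind microfibrils. Matrix metalloproteases (MMPs) cut collagens, gelatin and many other matrix and surface proteins, either secreted or anchored in the membrane, and the TIMPs inhibit them. In limb development, versican fills the matrix of condensing mesenchyme and is cleared as joints, interdigits and cartilage take shape, in part by ADAMTS proteases.

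Levels are given as log2 of the processed intensity relative to the 75th percentile of the same array, so 0 is the 75th percentile and 1 unit is a doubling. A level of 1 probe cannot be set against that of another, and each gene is compared only between the groups. The 75th percentile was 126 intensity units on positive replicate 1 and 385 to 478 on the other 5 arrays, and 24743 spots were well above background on that array against 29800 to 35277 on the others. No spot was saturated. The arrays sat on 3 slides, each with a positive and a negative array. Sox9, whose locus drives the reporter used for sorting, was 20.7-fold higher in positive cells, which is a check of the sort. Of the 7 measured genes of a cartilage precursor list, which counts Sox9 itself, 6 were higher and none was lower. All 6 genes of a limb mesenchyme list were measured, with 2 higher and 2 lower. Because these are sorted bulk samples, fewer cells of a kind and less RNA per cell cannot be told apart.

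A gene was tested where the scanner software marked its probe as well above background throughout 1 group or both. By that measure 22 of the 51 genes were detected on all 3 positive arrays and 24 on all 3 negative arrays, with 21 genes in both. Mmp25 was the gene detected in full in positive cells but on no negative array. Adamts2, Adamtsl1 and Timp4 were detected on all 3 negative arrays and on 2 of 3 positive arrays, missing on positive replicate 1, the dim array. On single arrays, 27, 32 and 40 of the 70 probes were above background in positive cells, against 30, 37 and 29 in negative cells, so the ranges overlapped.

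**Figure D1:**
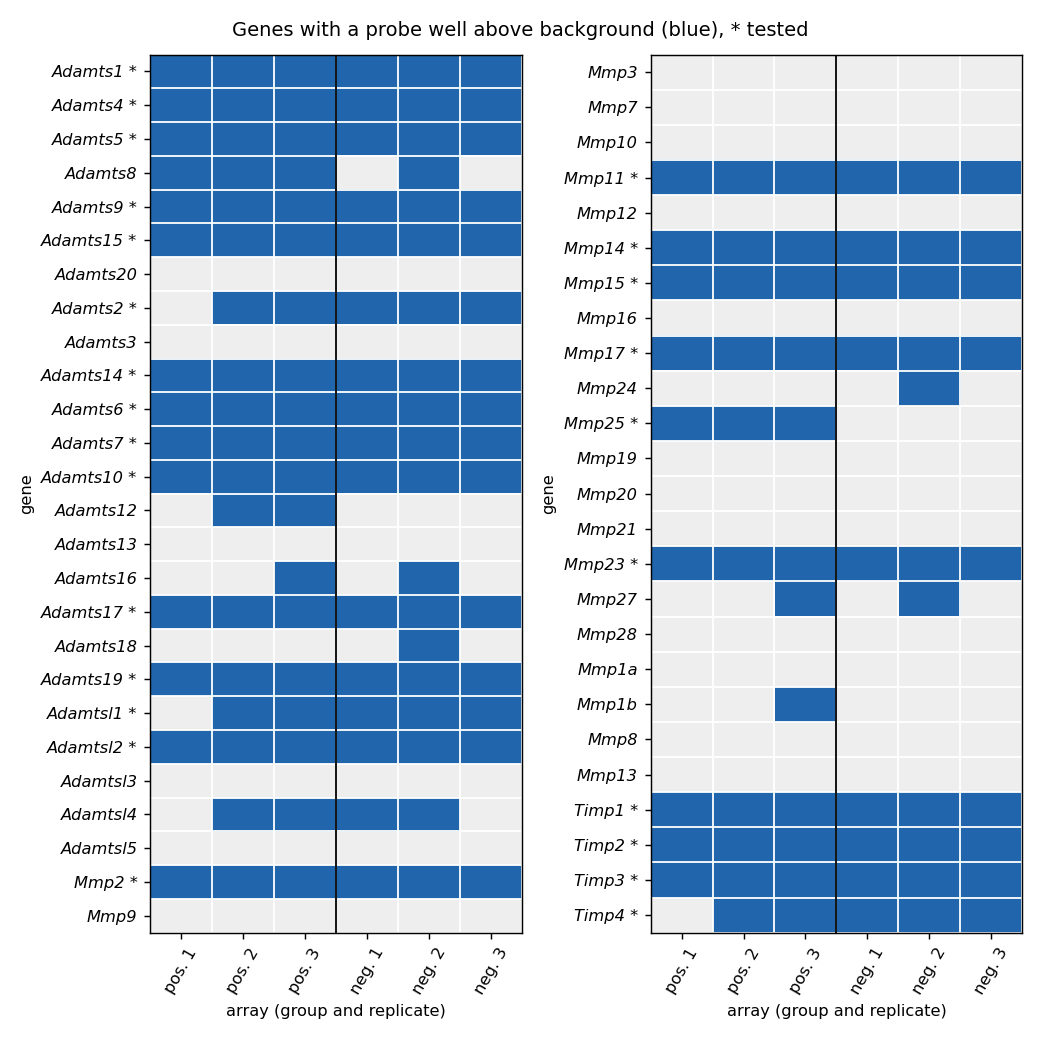
Each row is a member gene and each column an array, Sox9-EGFP positive arrays left of Sox9-EGFP negative ones. Blue cells mark arrays on which at least 1 probe of the gene was well above background, and asterisks mark the 25 genes tested. The 18 rows without any blue cell include most of the secreted collagenases and stromelysins.

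No probe was above background on any array for 18 genes. These were Adamts3, Adamts13, Adamts20, Adamtsl3, Adamtsl5, Mmp1a, Mmp3, Mmp7, Mmp8, Mmp9, Mmp10, Mmp12, Mmp13, Mmp16, Mmp19, Mmp20, Mmp21 and Mmp28. They hold 3 of the 4 collagenases (Mmp1a, Mmp8 and Mmp13) and gelatinase B (Mmp9). Another 8 genes were above background on some arrays without meeting the rule, namely Adamts8, Adamts12, Adamts16, Adamts18, Adamtsl4, Mmp1b, Mmp24 and Mmp27. Not well above background is a limit of the array and gives no level.

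Of the 25 tested genes, 10 were higher in Sox9-EGFP positive cells, 6 were lower and 9 were not called. This is by limma with Benjamini-Hochberg adjustment over all 13197 genes at a threshold of 0.05, by which 35.0% of all genes were called, 10.6% higher and 24.4% lower. For the tested members, 64% were called. The filter on low levels let 4 of them in through 1 group alone (Mmp25, Adamts2, Adamtsl1 and Timp4), and of the 21 detected on all 6 arrays 9 were higher, 5 were lower and 7 were not called. The arrays of the groups did not overlap for 18 of the 25 genes (72%), against 51.3% of all genes, and these were the 16 called genes plus Adamts1 and Timp3. The median difference of the tested members was 0.25, which is 0.43 above the median of all genes, −0.18. For all 16 called genes the sign was shared by all 3 slides, which follows from the lack of overlap and adds no further evidence. The labels do not say that samples came from different litters or sorts, so the p-values measure the spread between these samples.

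**Figure D2:**
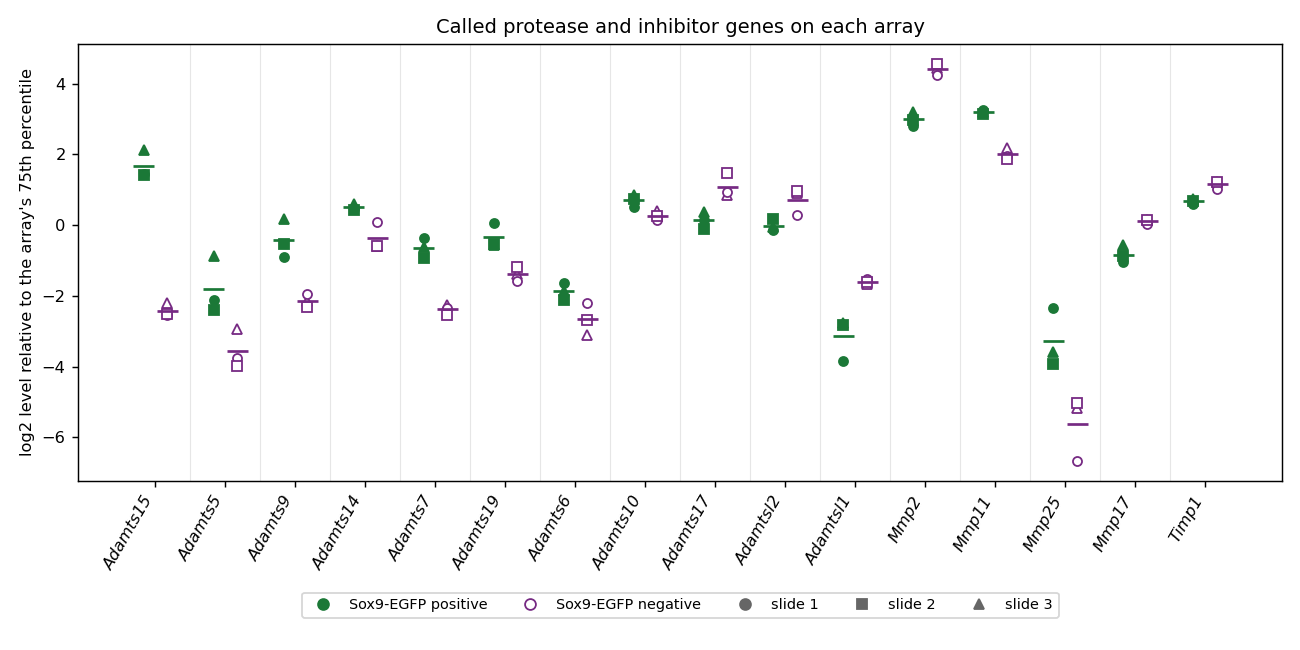
Level of each of the 16 called genes on each array, on a log2 scale relative to the array's 75th percentile. Filled green symbols are Sox9-EGFP positive arrays, open purple symbols Sox9-EGFP negative arrays, shapes mark the slide and bars the group mean. In no gene do the symbols of the groups overlap.

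The ADAMTS proteases leaned to the positive cells. Of 19 on the array 12 were tested, and 8 of these were higher, 1 was lower and 3 were not called, with a median difference of 0.83. Over all genes tested, 10.6% were higher and 24.4% lower, with a median of −0.18. The higher ones were Adamts5, Adamts6, Adamts7, Adamts9, Adamts10, Adamts14, Adamts15 and Adamts19, and the lower one was Adamts17. The calls of Adamts5, Adamts6, Adamts10 and Adamts14 were lost without the background filter and also with the replicate number as a block. That of Adamts17 was lost without the filter. Because 3 samples stand in each group, the smallest p an exact test could give for any single gene is 0.1, and the calls borrow their error estimate from the other genes.

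Within the branch that cleaves versican and aggrecan, 3 of 5 tested genes were higher and none was lower. The largest difference of the 25 tested members was that of Adamts15, a versicanase. Its levels were 1.46, 1.41 and 2.13 on the positive arrays, against −2.21, −2.54 and −2.52 on the negative arrays. All 3 positive arrays lay above the 75th percentile and all 3 negative ones far below it. The difference was 4.09 ± 0.22 (SE), or 17.04-fold, with a limma adjusted p of 0.000214. It was 4.001, 3.93 and 4.34 within slides 1, 2 and 3. The probe lies at chr9:30707033-30707092 in mm9, on the minus strand.

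Adamts9, which acts on the same proteoglycans, read −0.89, −0.55 and 0.17 in positive cells and −2.16, −1.96 and −2.33 in negative cells. The positive arrays were spread more widely than the negative ones, yet all lay above them. Its difference was 1.73 ± 0.28 (3.31-fold, limma adjusted p 0.00595), and it was 1.07, 1.78 and 2.33 on slides 1, 2 and 3. Adamts5, the main aggrecanase of mouse cartilage, read −2.13, −2.39 and −0.86 in positive cells and −2.94, −3.75 and −3.99 in negative cells. The groups did not overlap, but the arrays of each were spread widely. Its difference was 1.76 ± 0.46 (3.40-fold, limma adjusted p 0.0284), and a second probe gave 2.02 ± 0.32, also called. The call for Adamts5 was lost on leaving out negative replicate 2 (adjusted p 0.0778) or negative replicate 3 (0.102), and under quantile scaling (0.0679), normexp with quantile scaling (0.0789) and the authors' deposited log2 values (0.0762).

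Adamts1 lies next to Adamts5 on chromosome 16 and just missed the threshold. Its levels were 2.31, 2.35 and 3.02 in positive cells and 1.88, 1.73 and 1.998 in negative cells, without overlap, and its difference was 0.69 ± 0.22 (limma adjusted p 0.0501). It was called higher with the slide as a block (0.0422) and with all 4 other scalings (0.0261 to 0.0375), and in 9 of 19 alternatives in all. Adamts4, also an aggrecanase, differed by 0.25 ± 0.18 (limma adjusted p 0.320), and its other probe by −0.01 ± 0.17, neither called. Adamts8, the neighbour of Adamts15 on chromosome 9, and Adamts20 were not tested.

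Among the remaining ADAMTS proteases, the procollagen N-proteinase Adamts14 read 0.47, 0.43 and 0.59 in positive cells, against −0.59, 0.09 and −0.60 in negative cells. The positive arrays were close together and the negative ones split, with negative replicate 2 higher than the others. The difference was 0.86 ± 0.21 (1.82-fold, limma adjusted p 0.0215), and the call was lost on leaving out positive replicate 3, negative replicate 1 or negative replicate 3 (0.0719 to 0.0790). Adamts2, the other tested procollagen N-proteinase, was not called, with −0.57 ± 0.43 (limma adjusted p 0.352). Leaving out negative replicate 3 alone turned this into a call, at −1.07 (0.0282). Adamts2 read −3.83, −3.94 and −3.65 in positive cells and −2.46, −3.01 and −4.24 in negative cells.

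Adamts7, known to cleave cartilage oligomeric matrix protein, read −0.36, −0.94 and −0.62 in positive cells, against −2.25, −2.34 and −2.55 in negative cells. The gap between the groups was wider than the spread within either. The difference was 1.74 ± 0.18 (3.34-fold, limma adjusted p 0.00136), and it was 1.98, 1.62 and 1.63 within slides 1, 2 and 3. Adamts19, an orphan protease, had levels of 0.05, −0.53 and −0.56 in positive cells and −1.40, −1.58 and −1.18 in negative cells. Its difference was 1.04 ± 0.21 (2.06-fold, limma adjusted p 0.0117), with the highest reading on the dim positive array, and it was 1.64, 0.64 and 0.84 on slides 1, 2 and 3.

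Adamts6 and Adamts10 are close relatives that act around fibrillin microfibrils, and both sat at the edge of the threshold. Adamts6 read −1.64, −2.11 and −1.86 in positive cells and −3.11, −2.21 and −2.68 in negative cells. The groups nearly touched. Its difference was 0.80 ± 0.25 (1.74-fold, limma adjusted p 0.0496). Adamts10 read 0.52, 0.74 and 0.85 in positive cells and 0.40, 0.14 and 0.26 in negative cells, and the difference was 0.44 ± 0.14 (1.36-fold, limma adjusted p 0.0481). The Adamts6 call was lost without any 1 array other than negative replicate 2, and that of Adamts10 without any 1 array other than positive replicate 1. Adamts6 was also not called under quantile scaling (0.0896), normexp with quantile scaling (0.0856) or the deposited log2 values (0.0929).

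Adamts17, which is linked to fibrillin and short stature in people, went the other way. Its levels were 0.14, −0.11 and 0.37 in positive cells and 0.84, 0.93 and 1.47 in negative cells. The difference was −0.95 ± 0.21 (1.93-fold lower in positive cells, limma adjusted p 0.0174). A second probe gave −0.76 ± 0.58 and was not called, with an adjusted p of 0.396 in the fit over all probes. Without positive replicate 2 the adjusted p of Adamts17 was 0.0503, and with the mean of its probes it was 0.120.

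Both ADAMTS-like genes that were tested were lower in positive cells, out of 5 on the array. Adamtsl4, above background on 2 arrays of each group, did not pass the filter and differed by 1.33, in the other direction. Without the filter it was not called (limma adjusted p 0.0890). Adamtsl1, known as punctin, read −3.84, −2.82 and −2.77 in positive cells, against −1.65, −1.53 and −1.61 in negative cells. The negative arrays lay close together, while positive replicate 1, where the probe was not above background, was well below the other positive arrays. The difference was −1.55 ± 0.30 (2.92-fold lower, limma adjusted p 0.0102) and was −1.20 without positive replicate 1 (0.00135). Its other probes did not pass the filter, and their differences of 0.41 and 0.37 rest mostly on readings not above background. Adamtsl2, which binds fibrillin and is mutated in a human short-limb dysplasia, read −0.14, 0.17 and −0.07 in positive cells and 0.91, 0.27 and 0.97 in negative cells. Its difference was −0.73 ± 0.21 (1.66-fold lower, limma adjusted p 0.0408). The call was lost on leaving out any 1 array except negative replicate 2 (0.0594 to 0.133), and under normexp, quantile scaling and centring on the median of tested genes. A further ADAMTS-like gene, Thsd4, carries no member name and belonged to a list of regulators: its difference was −2.09 ± 0.30 (4.25-fold lower, limma adjusted p 0.00389).

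**Figure D3:**
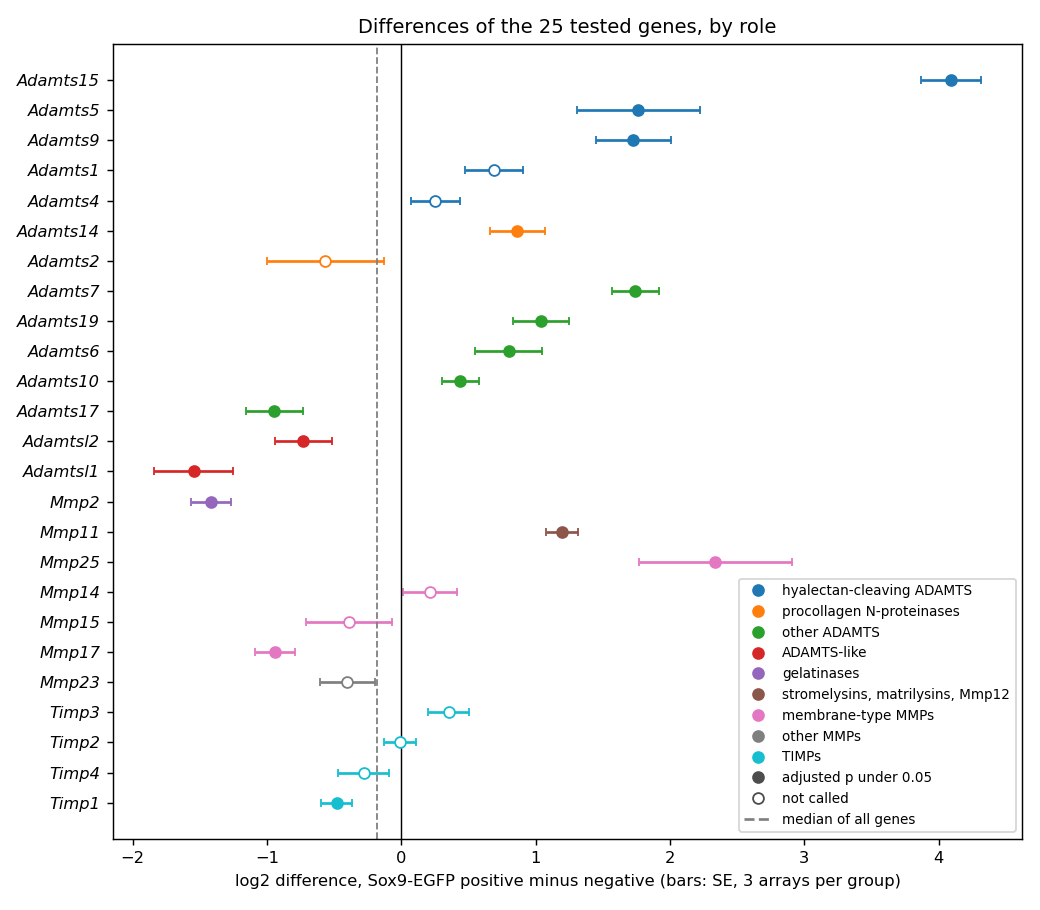
Fitted log2 difference, Sox9-EGFP positive minus negative, of the 25 tested genes, grouped by role and coloured by it, with bars of 1 SE over 3 arrays per group. Filled points passed the threshold, open points did not, and the dashed line is the median of all genes at −0.18. Most ADAMTS points lie to the right of the line, the ADAMTS-like points and Mmp2 to the left.

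The MMPs showed no common direction. Of 23 on the array 7 were tested, with 2 higher, 2 lower and 3 not called, and a median difference of −0.39. Of the 2 higher ones, Mmp25 passed the filter through the positive group alone, and Mmp11 was above background on all arrays. Mmp11, the stromelysin that acts little on matrix itself, read 3.25, 3.13 and 3.20 in positive cells and 2.17, 1.95 and 1.86 in negative cells. The arrays of each group lay close together. The difference was 1.19 ± 0.12 (2.29-fold, limma adjusted p 0.00132), a second probe gave 1.14 ± 0.13, and slides 1, 2 and 3 gave 1.29, 1.26 and 1.03.

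Mmp2, gelatinase A, was the tested MMP with the largest lower difference. It read 2.81, 2.98 and 3.18 in positive cells, against 4.43, 4.24 and 4.56 in negative cells. Its difference was −1.42 ± 0.15 (2.67-fold lower, limma adjusted p 0.00143) and ran from −1.58 to −1.25 within slides. Mmp17, a membrane-type MMP held by a lipid anchor, read −1.05, −0.88 and −0.57 in positive cells and 0.15, 0.02 and 0.15 in negative cells. Its difference was −0.94 ± 0.15 (1.92-fold lower, limma adjusted p 0.00560).

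Mmp25, the other lipid-anchored member, was at −2.35, −3.92 and −3.58 in positive cells and at −5.18, −6.66 and −5.02 in negative cells. It was not well above background on any negative array. With the scaling of the main comparison, a bound put it at least 2.50-fold higher in positive cells (fitted difference 2.34 ± 0.57, limma adjusted p 0.0228). That bound sets the mean of the positive arrays against the lowest level well above background on each negative array, −4.53 to −4.65, or the probe's own level where that was higher. The within-slide difference was 4.31 on slide 1, which holds the dim positive array, and 1.09 and 1.60 on slides 2 and 3. Without that array the difference was 1.87 (0.0323). The call was lost without positive replicate 3 or negative replicate 1 (0.0566 and 0.0508) and under quantile scaling (0.0550). It was also lost with normexp or the authors' deposited log2 values, where the difference was 0.36. The 2.50-fold bound is therefore not a minimum across scalings. It also counts the dim positive array, which gave the highest of the positive readings.

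Mmp14, the membrane-type protease that activates Mmp2, was not called, at 0.21 ± 0.20 (limma adjusted p 0.450). Mmp15, its close relative, was not called either, at −0.39 ± 0.32 (0.384), nor was Mmp23, at −0.40 ± 0.20 (0.174).

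All 4 TIMPs were tested, and 1 of them was called. Timp1 read 0.59, 0.68 and 0.74 in positive cells and 1.22, 1.01 and 1.22 in negative cells. The shift was small but free of overlap, at −0.48 ± 0.12 (1.40-fold lower, limma adjusted p 0.0215) and −0.42, −0.54 and −0.48 within slides 1, 2 and 3. The call was lost when any 1 array other than positive replicate 1 or negative replicate 2 was left out (0.0513 to 0.0891), and under quantile scaling (0.0520). Timp3, which binds the matrix and inhibits ADAMTS proteases too, read 2.58, 2.64 and 2.501 in positive cells and 2.495, 1.99 and 2.18 in negative cells. Its difference of 0.35 ± 0.15 was not called (limma adjusted p 0.122), but it was called higher with all 4 other scalings (0.0224 to 0.0362).

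Timp2, needed together with Mmp14 to activate Mmp2, read 5.46, 5.44 and 5.56 in positive cells and 5.65, 5.37 and 5.47 in negative cells. Its groups overlapped, with a difference of −0.01 ± 0.12 (limma adjusted p 0.946), and the sign of that difference turned under all 4 other scalings. Timp4 was not called, at −0.28 ± 0.19 (0.297).

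Of the members called, Adamts7, Adamts9, Adamts15, Adamts19, Mmp11, Mmp2, Mmp17 and Adamtsl1 kept an adjusted p under 0.05 in every alternative run at that threshold. Adamtsl1, above background on 2 of 3 positive arrays, was not part of the alternative that required all 6 arrays above background. For these 8 genes the highest adjusted p was 0.0465, that of Adamts19. The probes of 4 of them carry the results above, and the start of each is printed to show what was read on the array, as the first 30 of 60 bases with its mm9 position. Adamts15 is at chr9:30707033-30707092, Adamts7 at chr9:90094878-90094937, Mmp11 at chr10:75386024-75386083 and Mmp2 at chr8:95376840-95376899.
Adamts15: gagtatcttcattgggttatggaccagtaa
Adamts7: ttttattctaacagtttgcacatttgttat
Mmp11: gcacaggtaccctctaagccatgtacatgt
Mmp2: gttcttcaacatctatgacctttttatggc

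**Figure D4:**
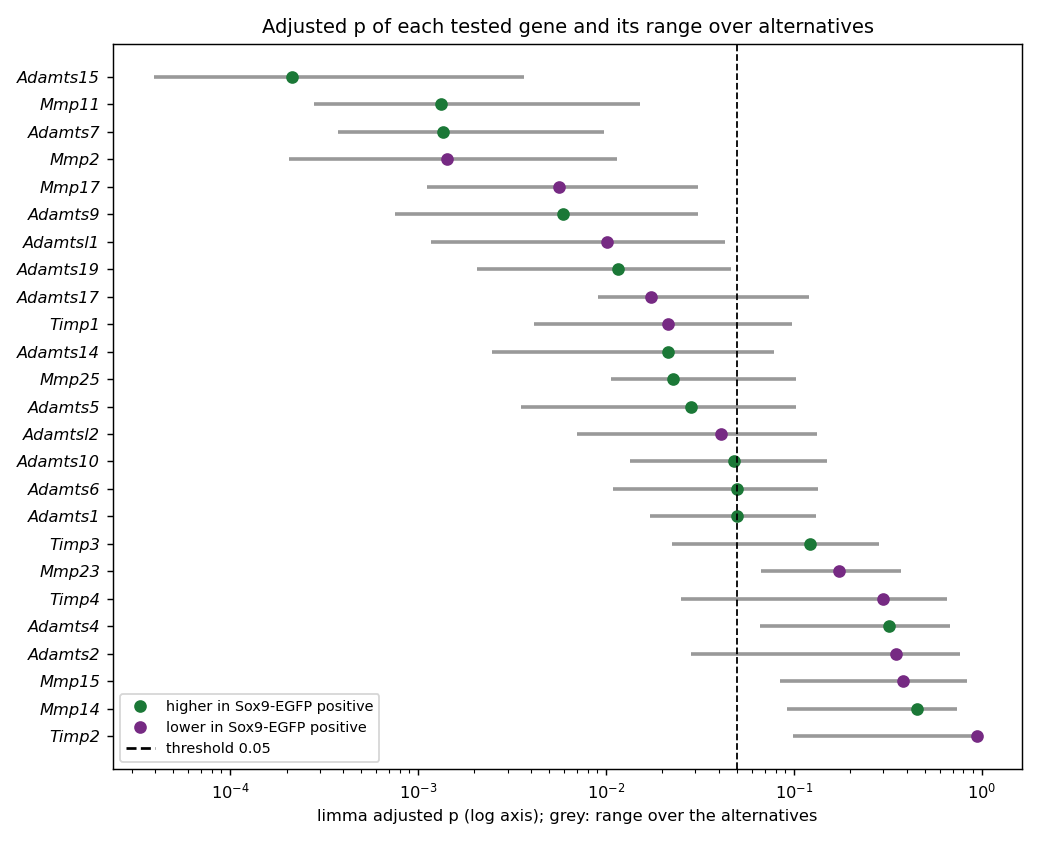
Limma adjusted p of each of the 25 tested genes on a log axis (point, green for higher and purple for lower in Sox9-EGFP positive cells) with its range over the alternatives (grey bar), and the threshold of 0.05 as a dashed line. For 8 of the 16 called genes the whole bar lies left of the line.

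The Mmp genes that lie side by side on chromosome 9 were nearly all among the undetected ones. In RefSeq's order of coding genes, Mmp13, Mmp12, Mmp1b, Mmp3, Mmp1a, Mmp10, Mmp8, Mmp27, Mmp20 and Mmp7 follow each other with no other coding gene between them. Their 12 probes span chr9:7282762-7697700 in mm9, the build of the array files. None of these 10 genes passed the filter, and a probe was above background on any array for 2 of them, Mmp1b on 1 array and Mmp27 on 2 arrays. The window around the start of each gene, from 250 bases before to 50 bases after it, was available from RefSeq (GRCm38.p6) for 36 of the 51 genes. Windows of the 10 cluster genes had a median GC content of 41.7% (37.7% to 52.0%) and a median of 1 CG dinucleotide. Windows of the 15 tested genes that have one had medians of 64.0% and 19, and all 32851 windows of the table had medians of 52.7% and 7. The untested genes outside the cluster, 11 with a window, had medians of 68.0% and 24, closer to the tested genes than to the cluster. The following windows are shown as an example of each kind, Mmp11 (chr10:75932453-75932752, minus strand, 67.0% GC, 19 CG dinucleotides) as a tested gene and Mmp3 (chr9:7445572-7445871, plus strand, 40.0% GC, 1 CG dinucleotide) as a cluster gene, in GRCm38.p6 with CG dinucleotides in capitals.
Mmp11: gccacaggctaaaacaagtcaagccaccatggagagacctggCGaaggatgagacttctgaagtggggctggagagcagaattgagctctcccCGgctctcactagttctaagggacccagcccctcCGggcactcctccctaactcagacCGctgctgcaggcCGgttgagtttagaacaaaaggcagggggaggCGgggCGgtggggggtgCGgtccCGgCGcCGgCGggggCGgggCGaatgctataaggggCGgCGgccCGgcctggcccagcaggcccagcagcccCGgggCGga
Mmp3: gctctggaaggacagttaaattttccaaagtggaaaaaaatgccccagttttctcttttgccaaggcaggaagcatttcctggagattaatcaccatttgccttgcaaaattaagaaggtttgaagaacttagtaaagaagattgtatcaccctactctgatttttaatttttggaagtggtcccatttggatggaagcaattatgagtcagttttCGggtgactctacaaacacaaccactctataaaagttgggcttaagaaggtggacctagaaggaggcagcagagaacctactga

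The letters ACAATG or ACAAAG, the core of the motif bound by SOX proteins, were searched on both strands of the same windows. They were present in 28.6% of all 32851 windows. By gene, 8572 of 27025 genes had a match in a window, against 11 of the 36 member genes. Of those 11, 7 were in the chromosome 9 cluster, and 4 of the 15 tested genes with a window had a match. Among members called higher in positive cells, 1 of 4 with a window had a match, Mmp25, and among those called lower 1 of 3 did, Timp1. A match describes letters only, and no test was made of these counts.

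Genes for matrix substrates of these enzymes moved in both directions. Of 16 listed matrix genes 15 were measured, 6 of them higher and 3 lower, with a median difference of 0.58. Over all genes tested, 10.6% were higher and 24.4% lower. Col2a1, the collagen of cartilage, differed by 5.19 ± 0.20 (36.5-fold higher, limma adjusted p 0.000145). Decorin (Dcn), a small proteoglycan, differed by 1.84 ± 0.20 (3.59-fold, 0.00185). Hapln1, which links proteoglycans to hyaluronan, was not above background on any positive array and was at least 1.68-fold lower in positive cells (fitted difference −1.54 ± 0.17, 0.00198). Another 3 genes of the list, already in the counts above, were looked up as substrates of these proteases after its values had been seen. Versican (Vcan), cut by Adamts15, Adamts9 and Adamts5, was 3.19-fold higher, at 1.67 ± 0.20 (0.00252). Aggrecan (Acan), cut by the same branch and above background on 2 of 3 positive arrays, was not called, at 0.58 ± 0.44 (0.351). Cartilage oligomeric matrix protein (Comp), cut by Adamts7, was not called either, at 1.03 ± 0.39 (0.0844).

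Of 14 genes listed around protease activation, inhibition and the plasmin pathway, 9 were measured, 1 higher and 2 lower. Over all genes tested, 35.0% were called, and the count was not tested against that share. The membrane-anchored MMP inhibitor Reck was higher by 0.91 ± 0.11 (1.88-fold, limma adjusted p 0.00274). Serpine2, an inhibitor of plasmin and plasminogen activators, was lower at −2.61 ± 0.35 (6.09-fold, 0.00325). Plaur, the urokinase receptor, was not above background on any positive array and was at least 1.78-fold lower (fitted difference −1.59 ± 0.21, 0.00334). Plau, Plat and Plg, which encode the proteases of that pathway, were not tested. Among the regulators and clearance genes, 5 of 6 were measured and 2 were lower, Thsd4 above and the ADAMTS cofactor Fbln1 at −0.84 ± 0.13 (0.00567).

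Other protease families were counted in the same way. Over all genes tested, 35.0% were called, 10.6% higher and 24.4% lower, and no test was made of the family counts. Of 12 ADAM proteases 10 were measured, with 2 higher and none lower: Adam23 differed by 1.49 ± 0.16 (limma adjusted p 0.00176) and Adam22 by 0.88 ± 0.21 (0.0205). Of 11 lysosomal cathepsins 9 were measured, with 1 higher and 2 lower. Ctsc differed by −1.68 ± 0.17 (0.00131), Ctsk by −1.59 ± 0.22 (0.00378) and Ctsf by 0.85 ± 0.20 (0.0208). Of 6 HTRA and related serine proteases 3 were measured: Prss23, above background on 3 positive arrays and 1 negative array, differed by 2.56 ± 0.21 (0.000713) and Htra2 by −0.61 ± 0.10 (0.00666). Of 7 tolloid and procollagen C genes 3 were measured, and Pcolce2 was lower at −0.57 ± 0.12 (0.0139).

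Markers of other cell types also moved between the groups. Their levels were summed on each array as multiples of its 75th percentile. Muscle precursor genes summed to 0.061 to 0.124 in positive cells and 0.495 to 1.11 in negative cells, and all 3 measured of 5 listed were lower. Pax3 and Myod1 were above background on no positive array and Lbx1 on 1, so the sum in positive cells is not a measured level, and the bounds were at least 4.19-fold lower for Pax3 and at least 1.80-fold lower for Myod1. Platelet genes summed to 0.099 to 0.108 in positive cells and 0.431 to 1.77 in negative cells (2 of 5 measured, 1 lower). The lower one, Pf4, was above background on no positive array and at least 11.4-fold lower, so this sum in positive cells is not a measured level either. Macrophage genes overlapped, at 0.840 to 1.92 in positive cells and 0.595 to 11.3 in negative cells (2 of 8 measured, 1 lower), and Ptprc, Adgre1, Cd68, Lyz2, Fcgr1 and Aif1 did not enter the comparison. The high end was negative replicate 2, where Csf1r read 3.47, against 0.40 and −1.54 on negative replicates 1 and 3. Red cell genes overlapped too, at 0.999 to 4.59 in positive cells and 1.63 to 40.2 in negative cells (3 of 5 measured, none called). Their high end was the same array, with Hbb-y at 4.72 on negative replicate 2, against 0.90 and −0.87 on negative replicates 1 and 3. Ectoderm genes were at 22.1 to 36.8 in positive cells and 9.12 to 11.46 in negative cells (5 of 7 measured, 3 higher). Endothelial genes overlapped, at 2.996 to 8.03 in positive cells and 1.94 to 4.81 in negative cells (3 of 8 measured, 1 higher), and Cdh5, Tek, Tie1, Emcn and Cldn5 did not enter the comparison. Neural crest and Schwann cell genes were at 1.25 to 1.44 in positive cells and 0.924 to 0.958 in negative cells (2 of 5 measured, 1 higher). Whether cells of these kinds contribute to the protease differences was not tested.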

How the data were processed

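Per the file headers, the authors obtained the intensity of each spot from Feature Extraction 10.7.3.1, with background correction inside each array and no scaling across arrays. A deposited table of log2 values had the same median of 6.41 on all 6 arrays and was correlated with the log2 mean signal at r of 0.997 to 0.998. Probe positions are those of mm9 in the files, and gene names come from RefSeq (GRCm38.p6).

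The processed intensities were log2-transformed and set against each array's 75th percentile over 59305 non-control spots, and replicate spots were averaged. Probes well above background throughout 1 group or both, and without outlier spots, were kept (26473), and the brightest stood for each gene. The test was limma 3.58.1 under R 4.3.3 (Benjamini-Hochberg adjustment over 13197 genes, threshold 0.05), a script tested on simulated data. All called members are named with every array, the other members at least once, and of each pathway list the called genes with the smallest adjusted p, up to 3, plus Vcan, Acan and Comp, added after values were seen. The number of arrays limits the precision. The members and lists were chosen with earlier results of these data known. Alternatives changed the background correction, scaling, filter, probe rule, variance model, slide or replicate block, threshold and arrays. Same-numbered arrays did not deviate together (r of −0.27, −0.42 and 0.16), so the replicate numbers were not taken as pairs, and arrays on the same slide correlated at 0.46, 0.36 and 0.23.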

Additional observations from a re-analysis of the deposited data

Results flagged for a closer look

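Adamts12 did not pass the filter on low levels but gave a signal above background in positive cells alone. Its brighter probe read −2.98, −3.997 and −3.28 on the positive arrays (mean −3.42), above background on 2 of 3, against −5.94, −6.71 and −6.64 on the negative arrays (mean −6.43), above background on none. With the negative arrays set at the lowest level well above background, this is 2.28-fold higher in positive cells. That counts the positive array that was not above background at its value, so it is not a strict lower bound. Without the filter, limma called it higher (fitted difference 3.01 ± 0.35, adjusted p 0.00933). That call adds no further evidence, because Adamts12 was picked here for its signal in positive cells alone. Its negative readings were not above background, so the fitted difference is not a measured one. A second probe was above background on 1 positive array and on no negative array. Adamts8, the neighbour of Adamts15, had a probe at −3.82, −3.78 and −3.86 on the positive arrays (mean −3.82), above background on 2 of 3, against −6.51, −5.64 and −6.68 on the negative arrays (mean −6.28), above background on none. The other Adamts8 probe was above background on 2 positive arrays and 1 negative array. That other probe stood for Adamts8 without the filter and was not called (0.52 ± 1.13, limma adjusted p 0.782). The probe with no negative array above background was not tested. Reckoned as for Adamts12, it was 1.73-fold higher in positive cells, again not a strict lower bound.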

How the results depend on the processing

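The members called higher and lower numbered 10 and 6, with 4617 genes called in all and a median member difference of 0.25. Without the background filter they were 6, 3 and 2656, with a median of 0.54: 5 of the 10 higher members (Adamts7, Adamts9, Adamts15, Adamts19 and Mmp11) and 3 of the 6 lower ones (Mmp2, Mmp17 and Adamtsl1) were called there too, and the sixth higher one was Adamts12. That median is the value of Mmp20, above background on no array, so it is not a measured difference. Mmp20 read −4.96 on positive replicate 1, the dim array, and −6.65 to −6.96 on the others. With the replicate block, whose numbers do not pair the arrays, 6 members were higher, 4 lower and 2157 genes were called, and with the slide as a block 11, 6 and 5245. A threshold of 0.01 left 4, 2 and 2109, and a 2-fold limit 7, 2 and 1454. Dropping single arrays gave 6 to 10 higher, 3 to 6 lower, 2485 to 5176 genes called and a median of 0.24 to 0.37. The fewest higher members, 6, came on dropping positive replicate 3 (2911 genes called), negative replicate 1 (2542) or negative replicate 3 (2485), and the fewest lower ones, 3, without positive replicate 2. Of the genes called in all, 69.7% were lower, against 53.7% with normexp and quantile or with quantile alone, 54.7% with centring and 55.4% with the deposited log2 values, where the median of all genes was −0.03, −0.04, −0.03 and −0.04. Timp2, not called, changed sign to 0.34 with normexp and quantile, 0.38 with quantile, 0.14 with centring, 0.32 with the deposited values, 0.0018 without positive replicate 1, 0.011 without positive replicate 2 and 0.066 without negative replicate 1, with a range of −0.073 to 0.066 over all single arrays dropped. No other tested member changed sign. The cause of these changes was not tested. The filter leaves out the dimmest genes, and 26 of the 51 members entered only the alternative without it.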
